A study of Mus musculus with 10 samples.

Results

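The genes described are 10 receptor genes for interleukin-1 and interleukin-18 (Il1r1, Il1rap and Il18r1), for cytokines of the interleukin-6 family (Il6ra, Il6st, Lifr and Il11ra1), for interleukin-17 (Il17ra) and for tumour necrosis factor (Tnfrsf1a and Tnfrsf1b). They were taken by symbol from a list made before this work, and are 10 of the 24421 rows of the count files, each with exactly 1 row. The files hold RNA sequencing counts of 10 pools of single mouse vagal sensory neurons, in 5 groups of 2 replicates. In the Trpv1 selection, neurons were picked by red fluorescence from 2 Trpv1-tdTomato mice, in which a Cre recombinase expressed from the Trpv1 gene switches on tdTomato at the Rosa26 locus, so that a red cell expresses Trpv1 or has expressed it. This selection gave 2 pools of 30 Trpv1-positive nodose neurons, 2 pools of 30 Trpv1-positive jugular neurons and 2 pools of 15 Trpv1-negative nodose neurons. In the capsaicin selection, dissociated neurons of wildtype mice were tested with 10 µM α,β-methylene ATP, which opens P2X channels, and with 1 µM capsaicin, which opens TRPV1. The capsaicin nodose pools, of 14 and 15 cells, responded to both agonists, and the capsaicin jugular pools, of 15 and 16 cells, responded to capsaicin alone. Neurons of the most caudal part of the fused ganglion were counted as nodose and those of the most rostral part as jugular. No group was inflamed. The neurons of the capsaicin selection had been exposed to these agonists before they were picked, and those of the Trpv1 selection had not. The ages of the mice are not given in the sources used here.

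Cytokine receptors of these families pass signals by chains that work together. Interleukin-1 binds the receptor chain encoded by Il1r1, which then needs the accessory chain of Il1rap, and the pair signals through the adaptor MyD88 to NF-kB. Cytokines of the interleukin-6 family bind a chain of their own, such as those of Il6ra, Il11ra1 or Lifr, and signal through the shared chain gp130, encoded by Il6st, to JAK kinases and STAT3. Il17ra encodes the chain shared by receptors for interleukin-17, and Tnfrsf1a and Tnfrsf1b encode the widely expressed and the more restricted receptor for tumour necrosis factor. Vagal sensory neurons are known to respond to inflammatory cytokines, and their cell bodies lie in the nodose ganglion, of placodal origin, and the jugular ganglion, of neural crest origin.

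Among the 10 genes the data centre on Lifr, Il6st and Il1r1, and the sequence before the start of each of these is shown so that their promoters can be compared. Each line holds 200 bases, from 250 to 51 bases before the RefSeq start on GRCm38.p6, 5′ to 3′ on the plus strand, which is the coding strand of all 3 genes. Capitals mark GC boxes, the 6 letters GGGCGG on either strand.
Lifr, chr15:7129322-7129521: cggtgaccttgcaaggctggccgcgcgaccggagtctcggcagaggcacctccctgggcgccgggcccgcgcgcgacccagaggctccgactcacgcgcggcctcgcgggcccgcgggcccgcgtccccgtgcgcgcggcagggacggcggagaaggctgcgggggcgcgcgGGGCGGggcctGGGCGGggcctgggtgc
Il6st, chr13:112463820-112464019: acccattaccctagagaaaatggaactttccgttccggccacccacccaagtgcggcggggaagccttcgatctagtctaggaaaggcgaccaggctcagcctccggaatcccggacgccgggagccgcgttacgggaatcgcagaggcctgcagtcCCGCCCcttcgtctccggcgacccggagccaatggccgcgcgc
Il1r1, chr1:40224830-40225029: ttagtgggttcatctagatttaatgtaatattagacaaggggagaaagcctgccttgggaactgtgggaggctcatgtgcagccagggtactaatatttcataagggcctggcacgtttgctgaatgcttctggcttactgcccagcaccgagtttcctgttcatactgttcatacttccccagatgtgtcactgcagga
The Lifr window held 34 CpG dinucleotides and 2 GC boxes, and the Il6st window held 22 CpG dinucleotides and 1 GC box. The Il1r1 window held 2 CpG dinucleotides and no GC box, and the median over the 32851 windows of the same length in the RefSeq table was 4 CpG dinucleotides. A GC box was present in 24.6% of all these windows. The STAT binding motif TTCNNNGAA was in none of the 3 windows shown and in 5.76% of all windows, and these matches describe letters only. Lifr and Il1r1 have a further RefSeq start each, of which the window of Lifr held 2 CpG dinucleotides and no GC box and that of Il1r1 held 4 CpG dinucleotides and 1 GC box.

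The total count was 148452506 to 167704327 in the 6 pools of the Trpv1 selection and 17666710 to 30810863 in the 4 pools of the capsaicin selection. Levels are given as normalized counts (CPM), which are counts divided by the size factor of the pool, and the smallest level told from 0 is that of 3 counts, which ranges over 0.0144 to 0.0191 CPM for pools of the Trpv1 selection and over 0.146 to 0.217 CPM for those of the capsaicin selection. Such limits cover counting error only. The replicate pools of a group differed far more than by counting: 15.4% to 44.4% of genes that reached 10 CPM in one pool were under 1 CPM in the other pool of the group. Trpv1 itself was at 146 and 251 CPM in the Trpv1-positive nodose pools and at 0.0413 and 0.0431 CPM in the Trpv1-negative pools. Summed over 8 neuronal markers, Trpv1 among them, the level ranged from 7772 to 16346 CPM over the 10 pools. Against the Trpv1-positive pools, edgeR called 2 of the 8 higher in the capsaicin pools and 2 lower, where it called 7.33% of all genes. The log2 fold changes were 1.75 for Snap25, 2.62 for Slc17a6, -2.53 for Uchl1 and -2.72 for Prph. Tac1, which encodes substance P and marks jugular neurons, was at 308 to 1338 CPM in the 4 jugular pools and at no more than 0.950 CPM in the 6 nodose pools. Summed over 10 markers of satellite glia and Schwann cells, the level ranged from 3322 to 4638 CPM for the Trpv1 selection and from 528 to 1319 CPM for the capsaicin selection. Of 10 macrophage and leukocyte markers, 9 had 0 counts in all 10 pools, and Cd68 reached 93.8 CPM in capsaicin nodose pool 1. The summed level of 6 endothelial markers was at most 30.9 CPM, and that of 8 fibroblast and mural cell markers was at most 47.6 CPM except in the capsaicin jugular pools, with 309 and 91.1 CPM. The 2 selections also differ in mouse strain, sequencing core, depth and exposure to the agonists before picking. Trpv1-positive pools held 30 cells and capsaicin pools 14 to 16. None of these can be told apart from the way the cells were chosen. The authors state that testing the cells may have raised or lowered the level of some genes. The Trpv1 pools come from the same 2 mice, so that p-values measure the spread between pools and not between animals.

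**Figure D1:**
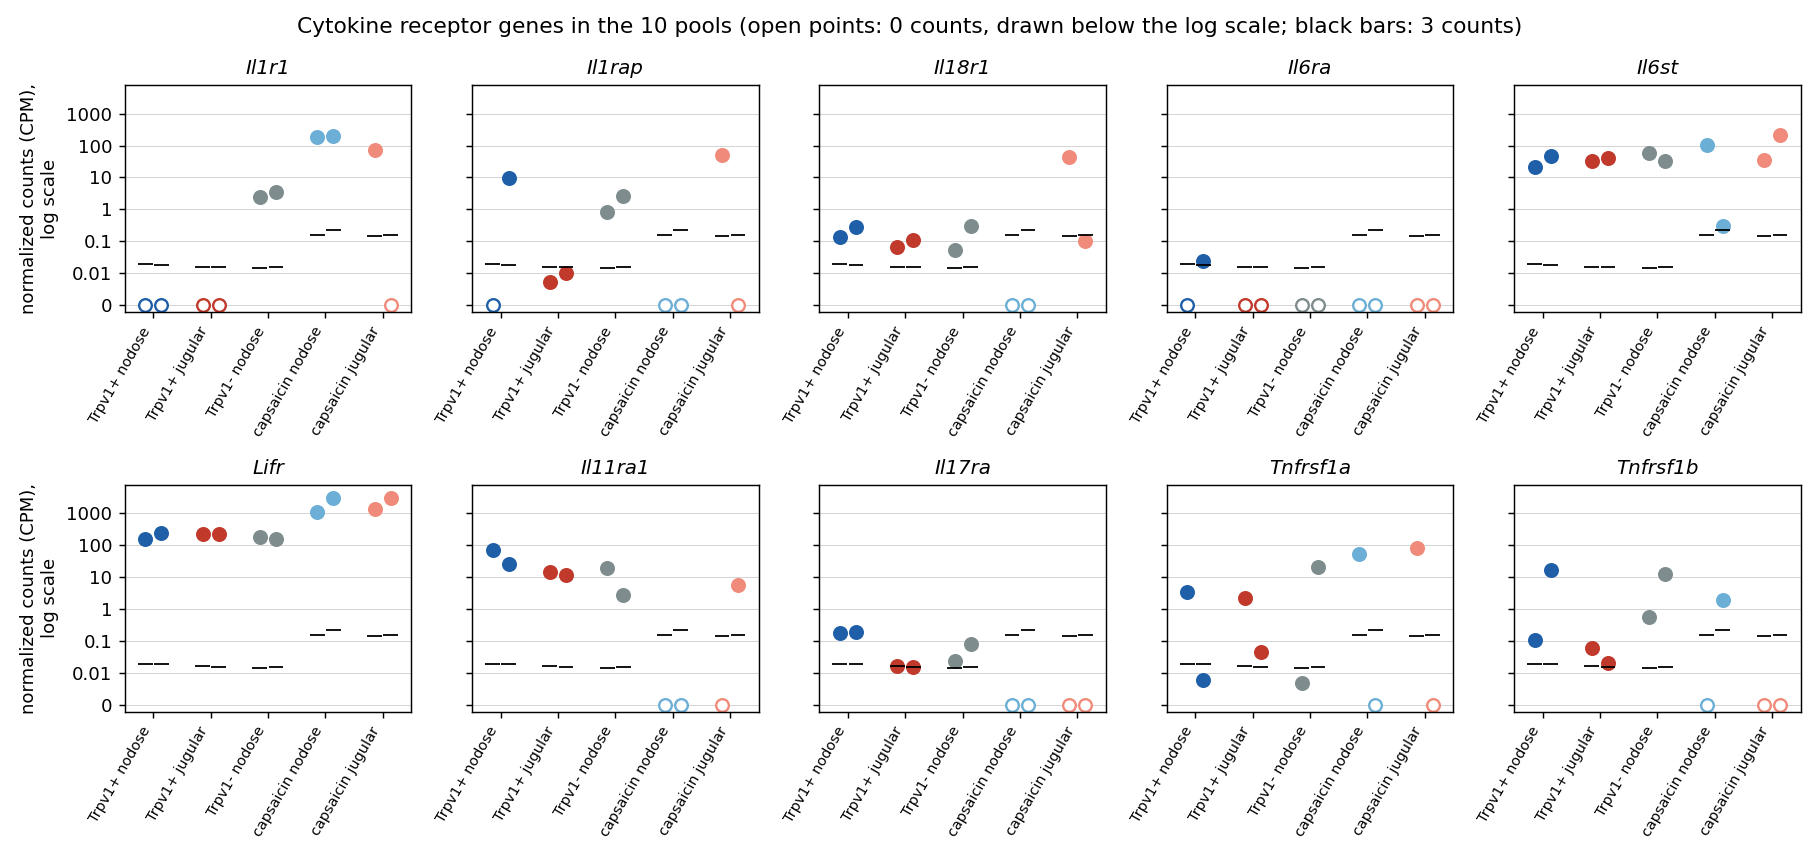
Normalized counts in CPM (log scale) of the 10 receptor genes, 1 point per pool and 2 pools per group, with 0 counts drawn as open points below the scale and the level of 3 counts as a black bar. Lifr lies between 154 and 3078 CPM in all 10 pools, whereas Il6ra exceeds 3 counts in only 1 pool.

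The 10 genes ranged from 1 at over 100 CPM in every pool (Lifr) and 1 at over 10 CPM in 9 pools (Il6st) to 8 that reached 10 CPM in 5 pools or fewer. Per kilobase of exon, the median over the 10 pools was 22.5 CPM for Lifr, 3.36 for Il6st, 1.91 for Il11ra1, 0.432 for Tnfrsf1a and 0.191 for Il1r1, and at most 0.0219 for the other 5 genes. Lifr alone made up 62.9% to 93.7% of the summed CPM of the 10 genes in a pool. Over 3 counts were found in both pools for 6 genes in the Trpv1-positive nodose group, 6 in the Trpv1-positive jugular group, 8 in the Trpv1-negative nodose group, 3 in the capsaicin nodose group and 2 in the capsaicin jugular group. After the deeper pools were thinned to the lowest total, the number over that limit was 3 genes in each of the Trpv1-positive groups, 6 in the Trpv1-negative nodose group, 3 in the capsaicin nodose group and 2 in the capsaicin jugular group. Without thinning, the counts of detected genes cannot be set side by side between the selections. In bulk pools, fewer cells of a type and less RNA per cell cannot be told apart.

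Lifr (chromosome 15, 7090614 to 7197489, plus strand) encodes the receptor chain for leukaemia inhibitory factor, which pairs with gp130. It was at 159 and 252 CPM in the Trpv1-positive nodose pools, 220 and 233 CPM in the Trpv1-positive jugular pools and 187 and 154 CPM in the Trpv1-negative nodose pools. Of the capsaicin selection, the nodose pools were at 1122 and 2986 CPM and the jugular pools at 1429 and 3078 CPM. Nodose and jugular pools overlapped in both selections, and every capsaicin pool was above every pool of the Trpv1 selection. The capsaicin selection was higher by 2.79 on the log2 scale (SE 0.38, n = 4 pools against 4, edgeR quasi-likelihood test with Benjamini-Hochberg adjusted p = 0.00171). The background of this comparison was wide, since 7.33% of the 10670 genes tested were called different, 2.34% in the upward direction, and the median log2 fold change of all genes was -0.96. On plain totals the capsaicin pools lay between 970 and 3374 CPM and the pools of the Trpv1 selection between 162 and 278 CPM, so that the groups did not overlap on that scale either. The share of all genes that lay apart between the selections in this way was not counted on either scale. The part of strain, sequencing core, depth, agonist exposure, cells per pool and glial RNA in this difference was not tested. Nodose against jugular, the log2 fold change of Lifr was -0.14 (SE 0.41) for the Trpv1 selection and -0.58 (SE 0.65) for the capsaicin selection, and Trpv1-positive against Trpv1-negative it was 0.30 (SE 0.42), and none of these differences was larger than the spread between pools.

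**Figure D2:**
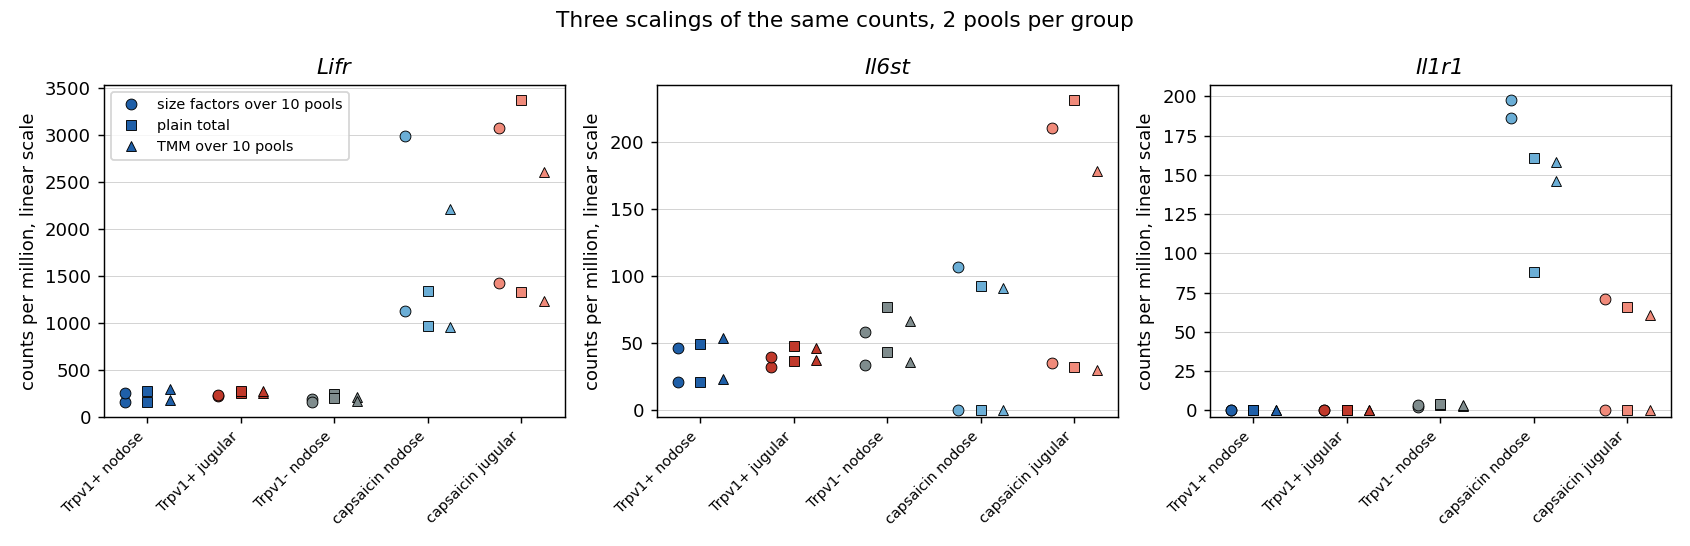
CPM on a linear scale for Lifr, Il6st and Il1r1 in the 5 groups, 2 pools each, after scaling by size factors (circles), by the plain total (squares) and by TMM factors (triangles). The 4 capsaicin pools of Lifr lie above all 6 pools of the Trpv1 selection under each scaling.

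Il6st (chromosome 13, 112464070 to 112510086, plus strand), which encodes the shared chain gp130, was at 20.9 and 46.0 CPM in the Trpv1-positive nodose pools, 32.3 and 39.8 CPM in the Trpv1-positive jugular pools and 57.9 and 33.5 CPM in the Trpv1-negative nodose pools. These 6 pools overlapped between the groups. The capsaicin jugular pools were at 34.8 and 211 CPM, and the capsaicin nodose pools at 107 and 0.29 CPM, the latter from 4 counts. Thus 9 of 10 pools had over 10 CPM and 1 pool was close to the limit of detection. The log2 fold change between the selections was 0.82 (SE 1.46, adjusted p = 0.839 by edgeR), and nodose against jugular it was -0.11 (SE 1.24) for the Trpv1 selection and -1.43 (SE 2.43) for the capsaicin selection. Trpv1-positive against Trpv1-negative nodose it was -0.43 (SE 1.12). None of these passed the test, and with errors of this size changes of severalfold would not have been detectable.

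Il11ra1 (chromosome 4, 41699989 to 41769474, plus strand) encodes the binding chain for interleukin-11, and its counts are uncertain because the mouse genome holds near copies of it. Of its 50-base stretches, 46.3% also occur in Il11ra2 or Gm13305, and the coding sequences were identical at 1283 of 1296 bases (99.0%), with a longest identical run of 356 bases. The following 100 coding bases, 990 to 1089, show how little separates the copies, with the 4 positions that differ in capitals.
Il11ra1: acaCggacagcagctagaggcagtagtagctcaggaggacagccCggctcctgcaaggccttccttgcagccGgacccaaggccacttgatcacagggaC
Il11ra2: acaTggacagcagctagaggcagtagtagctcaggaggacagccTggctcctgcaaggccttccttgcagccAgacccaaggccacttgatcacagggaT
Gm13305: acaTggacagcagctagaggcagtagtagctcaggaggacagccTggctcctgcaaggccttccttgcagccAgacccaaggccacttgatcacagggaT
The row of Il11ra1 was at 69.3 and 25.4 CPM in the Trpv1-positive nodose pools, 14.4 and 11.4 CPM in the Trpv1-positive jugular pools and 19.6 and 2.71 CPM in the Trpv1-negative nodose pools. It had 0 counts in both capsaicin nodose pools, and 0 and 5.68 CPM in the capsaicin jugular pools. The Trpv1-positive nodose pools were thus the highest and did not overlap with any other group. Groups that do not overlap were common at 2 pools each: 42.1% of all genes tested did not overlap between nodose and jugular pools in the Trpv1 selection, 42.1% in the capsaicin selection and 40.7% between Trpv1-positive and Trpv1-negative nodose pools. Against the jugular pools the log2 fold change was 1.86 (SE 1.41, adjusted p = 0.785 by edgeR), and against the Trpv1-negative pools it was 2.08 (SE 1.61, adjusted p = 0.800 by edgeR). Neither passed the test. Leaving out 1 pool at a time gave 0.97 to 2.40 for the jugular and 1.21 to 4.18 for the Trpv1-negative comparison, none past the test. Between the selections Il11ra1 did not pass in edgeR (log2 fold change -7.31, SE 4.47, adjusted p = 0.450, and -14.9 to -4.07 without 1 pool) but passed in DESeq2, with an adjusted p of 0.00637 on filtered counts and 0.0149 on unfiltered counts, where 24.6% and 16.9% of all genes were called. Il6ra (chromosome 3, 89864059 to 89913196, minus strand), the binding chain for interleukin-6 itself, had 4 counts in Trpv1-positive nodose pool 2 and 0 counts in the other 9 pools.

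Il1r1 (chromosome 1, 40225080 to 40317257, plus strand), the signalling receptor for interleukin-1, had 0 counts in all 4 Trpv1-positive pools. It was at 2.43 and 3.39 CPM in the Trpv1-negative nodose pools, from 508 and 656 counts. The capsaicin nodose pools were at 186 and 197 CPM, and the capsaicin jugular pools at 70.7 and 0 CPM. The Trpv1-negative pools were thus both above the Trpv1-positive nodose pools, by at least 156-fold when the latter are set to 3 counts per pool. This difference did not pass the edgeR test (adjusted p = 0.366) and was not past the level required for a call, since neither pool reached 10 CPM. DESeq2 gave an adjusted p of 0.136 on filtered and 0.000108 on unfiltered counts. Against the Trpv1-positive pools the capsaicin pools were at least 6641-fold higher on average with the same limit of 3 counts (edgeR adjusted p = 0.0449), although 1 of the 4 capsaicin pools had 0 counts. Within the capsaicin selection, nodose against jugular, the log2 fold change was 2.14 (SE 2.76, edgeR adjusted p = 0.9999), with 1 jugular pool at 0. The call between the selections rested on the nodose pools: leaving out any 1 of the 4 nodose pools gave an adjusted p between 0.104 and 0.140. Il1r1 and Lifr were the 2 genes called by edgeR in this comparison among the 7 receptor genes tested, where 7.33% of all genes were called. DESeq2 called Il1r1, Lifr and Il11ra1, where it called 24.6% of all genes on filtered and 16.9% on unfiltered counts. The part of strain, sequencing core, depth, agonist exposure and cells per pool in the difference was not tested. Of the macrophage and leukocyte markers only Cd68 was above 0 in the capsaicin nodose pools, at 93.8 and 0.145 CPM. Only 1 of the 8 fibroblast and mural cell markers had over 3 counts in either of these pools, and the 8 summed to 47.6 and 0 CPM.

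Il1rap (chromosome 16, 26581704 to 26730117, plus strand), the accessory chain that Il1r1 needs, was found in few pools. It was at 0 and 9.80 CPM in the Trpv1-positive nodose pools, 0.828 and 2.56 CPM in the Trpv1-negative nodose pools and 51.3 and 0 CPM in the capsaicin jugular pools. The Trpv1-positive jugular pools had 1 and 2 counts and the capsaicin nodose pools had none. Both capsaicin nodose pools thus had 3601 and 2724 counts of Il1r1 with 0 counts of Il1rap, whereas capsaicin jugular pool 1 and both Trpv1-negative pools had both chains. Il18r1 (chromosome 1, 40465552 to 40500854, plus strand), which binds interleukin-18, was at 0.134 and 0.279 CPM in the Trpv1-positive nodose pools and 0.0640 and 0.105 CPM in the Trpv1-positive jugular pools. It was at 0.0526 and 0.295 CPM in the Trpv1-negative nodose pools, at 44.7 and 0.103 CPM in the capsaicin jugular pools and at 0 in both capsaicin nodose pools. Its only level over 1 CPM came from capsaicin jugular pool 1, the pool that also held the highest levels of Il1rap and Tnfrsf1a. In that pool the 8 fibroblast and mural cell markers summed to 309 CPM, the highest of the 10 pools, of which Dcn alone was 296 CPM. Only 4 of the 8 had over 3 counts in a capsaicin jugular pool. The part of fibroblast RNA in these levels was not tested.

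Il17ra (chromosome 6, 120463247 to 120487559, plus strand) was low in every pool. It was at 0.179 and 0.194 CPM in the Trpv1-positive nodose pools, 0.0160 and 0.0150 CPM in the Trpv1-positive jugular pools and 0.0239 and 0.0775 CPM in the Trpv1-negative nodose pools. These are 28 and 32 counts, 3 and 3 counts, and 5 and 15 counts, and all 4 capsaicin pools had none. Both Trpv1-positive nodose pools stood above both jugular pools and above both Trpv1-negative pools. The log2 fold change of nodose over jugular was 3.52 (SE 1.06). The edgeR adjusted p was 0.321, and DESeq2 gave 0.000291 on filtered and 0.163 on unfiltered counts. The limit of 3 counts was 0.146 to 0.217 CPM in the capsaicin pools, close to the level of the Trpv1-positive nodose pools and below it in 3 of the 4 pools.

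Tnfrsf1a (chromosome 6, 125349362 to 125362484, plus strand) was present in 1 pool of each pair and near 0 in the other. It was at 3.36 and 0.00607 CPM in the Trpv1-positive nodose pools, 2.19 and 0.0450 CPM in the Trpv1-positive jugular pools and 0.00479 and 21.6 CPM in the Trpv1-negative nodose pools. It was at 52.9 and 0 CPM in the capsaicin nodose pools and 80.9 and 0 CPM in the capsaicin jugular pools. All groups overlapped in their ranges, and no fold change is given for it. Tnfrsf1b (chromosome 4, 145213463 to 145246870, minus strand) was at 0.108 and 16.7 CPM in the Trpv1-positive nodose pools and at 0.574 and 12.7 CPM in the Trpv1-negative nodose pools. The Trpv1-positive jugular pools were at 0.0587 and 0.0200 CPM, the capsaicin nodose pools at 0 and 1.88 CPM, and both capsaicin jugular pools at 0. Over 1 CPM was therefore found in nodose pools and in no jugular pool. In the Trpv1 selection the log2 fold change of nodose over jugular was 7.73 (SE 3.51, edgeR adjusted p = 0.513), and leaving out 1 pool gave 1.43 to 8.71. DESeq2 gave an adjusted p of 0.00252 on filtered and 0.00618 on unfiltered counts in the Trpv1 selection. In the 8 nodose and jugular pools of both selections the log2 fold change was 7.92 (SE 2.88, n = 4 pools against 4), with an adjusted p of 0.364 by edgeR and of 0.00401 and 0.00681 by DESeq2 on filtered and unfiltered counts. It rests on single pools, since 2 of the 4 nodose pools were at 0.108 CPM or less, and it was at 10 CPM in both pools of no group.

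**Figure D3:**
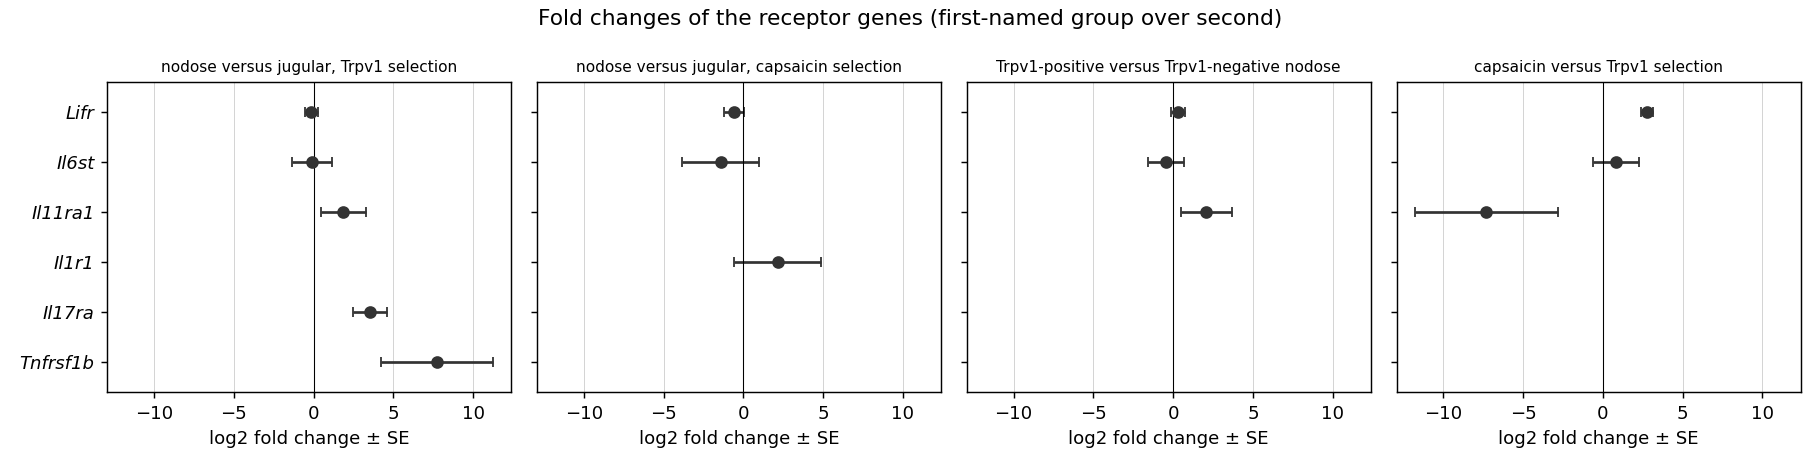
Log2 fold changes with their standard errors from edgeR, first-named group over second, for receptor genes that reached 10 CPM in both pools of a group or an unadjusted p of at most 0.1, leaving out genes with a whole group at 0 counts. Of the points drawn, only that of Lifr between the selections, at 2.79, passed the test.

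None of the 10 genes was called between nodose and jugular neurons or between Trpv1-positive and Trpv1-negative neurons. In the Trpv1 selection 7 receptor genes could be tested for nodose against jugular, where 0.318% of all genes tested were called, and in the capsaicin selection 4 could be tested, where 0% were called. In the Trpv1-positive against Trpv1-negative comparison 9 could be tested and 0.0527% of all genes were called. With both selections in 1 fit 7 could be tested and 0.825% of all genes were called, and for the difference of the ganglion contrast between the selections 9 could be tested and 0% were called. At an unadjusted p of at most 0.05 there was 1 receptor gene in the Trpv1 selection (Il17ra), where 11.9% of all genes had such a p, and 1 in the Trpv1-positive against Trpv1-negative comparison (Il1r1), where the share was 11.1%. In the capsaicin selection there was none, against 14.1% of all genes, and in the fit of both selections it was Tnfrsf1b, against 8.19% of all genes. For the difference between the selections it was 2 of the 9 tested, Il1rap and Il18r1, against 10.3% of all genes, and the edgeR adjusted p of both was 0.478. DESeq2 gave 4.04e-05 and 0.000103 for Il1rap on filtered and unfiltered counts, and 0.0123 and 0.0089 for Il18r1. In the capsaicin selection alone, on unfiltered counts, it gave 8.47e-09 for Il1rap and 0.00778 for Il18r1. Both genes had 0 counts in the capsaicin nodose pools, and their levels in capsaicin jugular pool 1 were 51.3 and 44.7 CPM. DESeq2 also called none of the 10 genes in these 4 comparisons of groups on either set of counts, because those with a low adjusted p did not reach 10 CPM in both pools of a group. It called 10.2% of all genes on filtered and 4.02% on unfiltered counts for the ganglia of the Trpv1 selection, 10.9% and 6.96% for those of the capsaicin selection, 6.86% and 2.91% between Trpv1-positive and Trpv1-negative neurons, and 13.1% and 8.64% in the fit of both selections. For the difference between the selections it called Il11ra1 (adjusted p = 0.0568 on filtered and 0.0876 on unfiltered counts), where 10.7% and 8.66% of all genes were called. With 2 pools a group, the smallest two-sided p that an exact permutation test allows is 0.33.

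Further down the same pathways, Jak1, Stat3 and Ptpn11 of the 8 genes of the gp130 signal chain had over 3 counts in all 10 pools, against 4 pools for Tyk2, 6 each for Jak2 and Socs3 and 7 for Pias3. Jak1, the kinase that gp130 receptors use, was at 1175 and 1078 CPM in the Trpv1-positive nodose pools, 147 and 54.8 CPM in the Trpv1-positive jugular pools and 640 and 587 CPM in the Trpv1-negative nodose pools. The capsaicin nodose pools were at 657 and 587 CPM and the capsaicin jugular pools at 52.7 and 88.3 CPM. All 6 nodose pools were above all 4 jugular pools, and over the 8 pools of the fit 5.55% of all genes did not overlap between the ganglia. Jak1 was higher in nodose neurons by 3.16 on the log2 scale in the fit of both selections (SE 0.46, n = 4 pools against 4, edgeR adjusted p = 0.0129), and was the only gene called in that fit among the 8 of the gp130 signal chain, whose median log2 fold change was 0.44 against -0.16 over all genes. In the Trpv1 selection alone its log2 fold change was 3.48 (SE 0.52, adjusted p = 0.169), and in the capsaicin selection alone it was 2.79 (SE 0.74, adjusted p = 0.352). Stat3, the transcription factor at the end of this chain, ranged from 87.2 to 377 CPM over the 10 pools and was not called in any comparison.

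The other receptors of these families were mostly near 0. Of 7 other receptors of the interleukin-1 family, the 2 with the highest median per kilobase were Il1rl1, the receptor for interleukin-33, at no more than 0.889 CPM, and Il1r2, a decoy receptor that binds interleukin-1 without signalling. Il1r2 was at 148 CPM in capsaicin nodose pool 2 and 18.6 CPM in Trpv1-negative nodose pool 2, and at 1 count or 0 in the other 8 pools. Of 5 other receptors that belong to the gp130 family or resemble it, Lepr, the leptin receptor, was at 0.923 to 33.2 CPM and Csf3r at 0.146 to 4.01 CPM. Among 4 other interleukin-17 receptor genes, Il17rd had the highest median and did not exceed 2.14 CPM, and the other 3 had 0 counts in most pools. Of 16 other genes of the tumour necrosis factor receptor superfamily, Tnfrsf12a, the receptor for TWEAK, reached 308 CPM and Ngfr, the low-affinity neurotrophin receptor, reached 528 CPM. Only Tnfrsf21 of these 16 was called, between the selections: it was at 38.4 to 146 CPM in the Trpv1-positive pools and at 0.362 to 17.3 CPM in the capsaicin pools, a log2 fold change of -5.61 (SE 1.62, edgeR adjusted p = 0.0812).

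None of 12 adaptors of interleukin-1 and interleukin-17 receptors, 9 adaptors of tumour necrosis factor receptors, 11 genes of the NF-kB core or 17 ligands was called in any of the 6 comparisons. Some had a low p before adjustment, and 3 of these, chosen after their values were seen, show the pools behind it. Il6, the ligand of Il6ra, had 40 and 46 counts in the Trpv1-positive nodose pools, at most 0.279 CPM, and 0 in the other 8 pools (edgeR adjusted p = 0.321 against the jugular and 0.366 against the Trpv1-negative pools). In the capsaicin pools 3 counts are 0.146 to 0.217 CPM, close to that level. Tradd was at 28.4 and 17.7 CPM in the Trpv1-positive jugular pools and at 0 and 0.00607 CPM in the Trpv1-positive nodose pools (adjusted p = 0.321). In the capsaicin selection its log2 fold change, nodose over jugular, had the other sign (1.35, SE 3.31). Trpv1-positive against Trpv1-negative nodose it was -8.54 (SE 2.48, edgeR adjusted p = 0.366). Ikbkb, a kinase that activates NF-kB, was at 66.9 and 26.1 CPM in the capsaicin jugular pools and at 0 in both capsaicin nodose pools (adjusted p = 0.352). In the Trpv1 selection its log2 fold change, nodose over jugular, had the other sign (1.88, SE 3.06). Of all genes, 11.9% (Trpv1 selection) and 14.1% (capsaicin selection) had an unadjusted edgeR p of at most 0.05 between the ganglia. Between Trpv1-positive and Trpv1-negative nodose pools the share was 11.1%. Irak1 was at 5.36 to 169 CPM and Tollip, which restrains interleukin-1 signalling, at 4.64 to 366 CPM, each over 3 counts in all 10 pools. Tradd and Fadd, which bind receptors with a death domain or their complexes, reached 52.9 and 23.8 CPM. The NF-kB inhibitor Nfkbib was at 1.56 to 126 CPM and the NF-kB subunit Rela at 0.0725 to 93.4 CPM. Among the ligands the highest medians per kilobase were those of Il18, at 0 to 36.6 CPM, and Il11, at 0.0972 to 1.81 CPM. The median log2 fold change between the selections was -3.34 for the 9 NF-kB genes tested, beside -0.96 over all genes. Of these 9, 0 had an unadjusted edgeR p of at most 0.05, and the SE of a single gene reached 17.8 (Tnfaip3). The median was -1.24 for the 9 tested adaptors of interleukin-1 and interleukin-17 receptors. It was -0.94 for the 3 tested adaptors of tumour necrosis factor receptors and -3.04 for the 3 tested ligands.

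**Figure D4:**
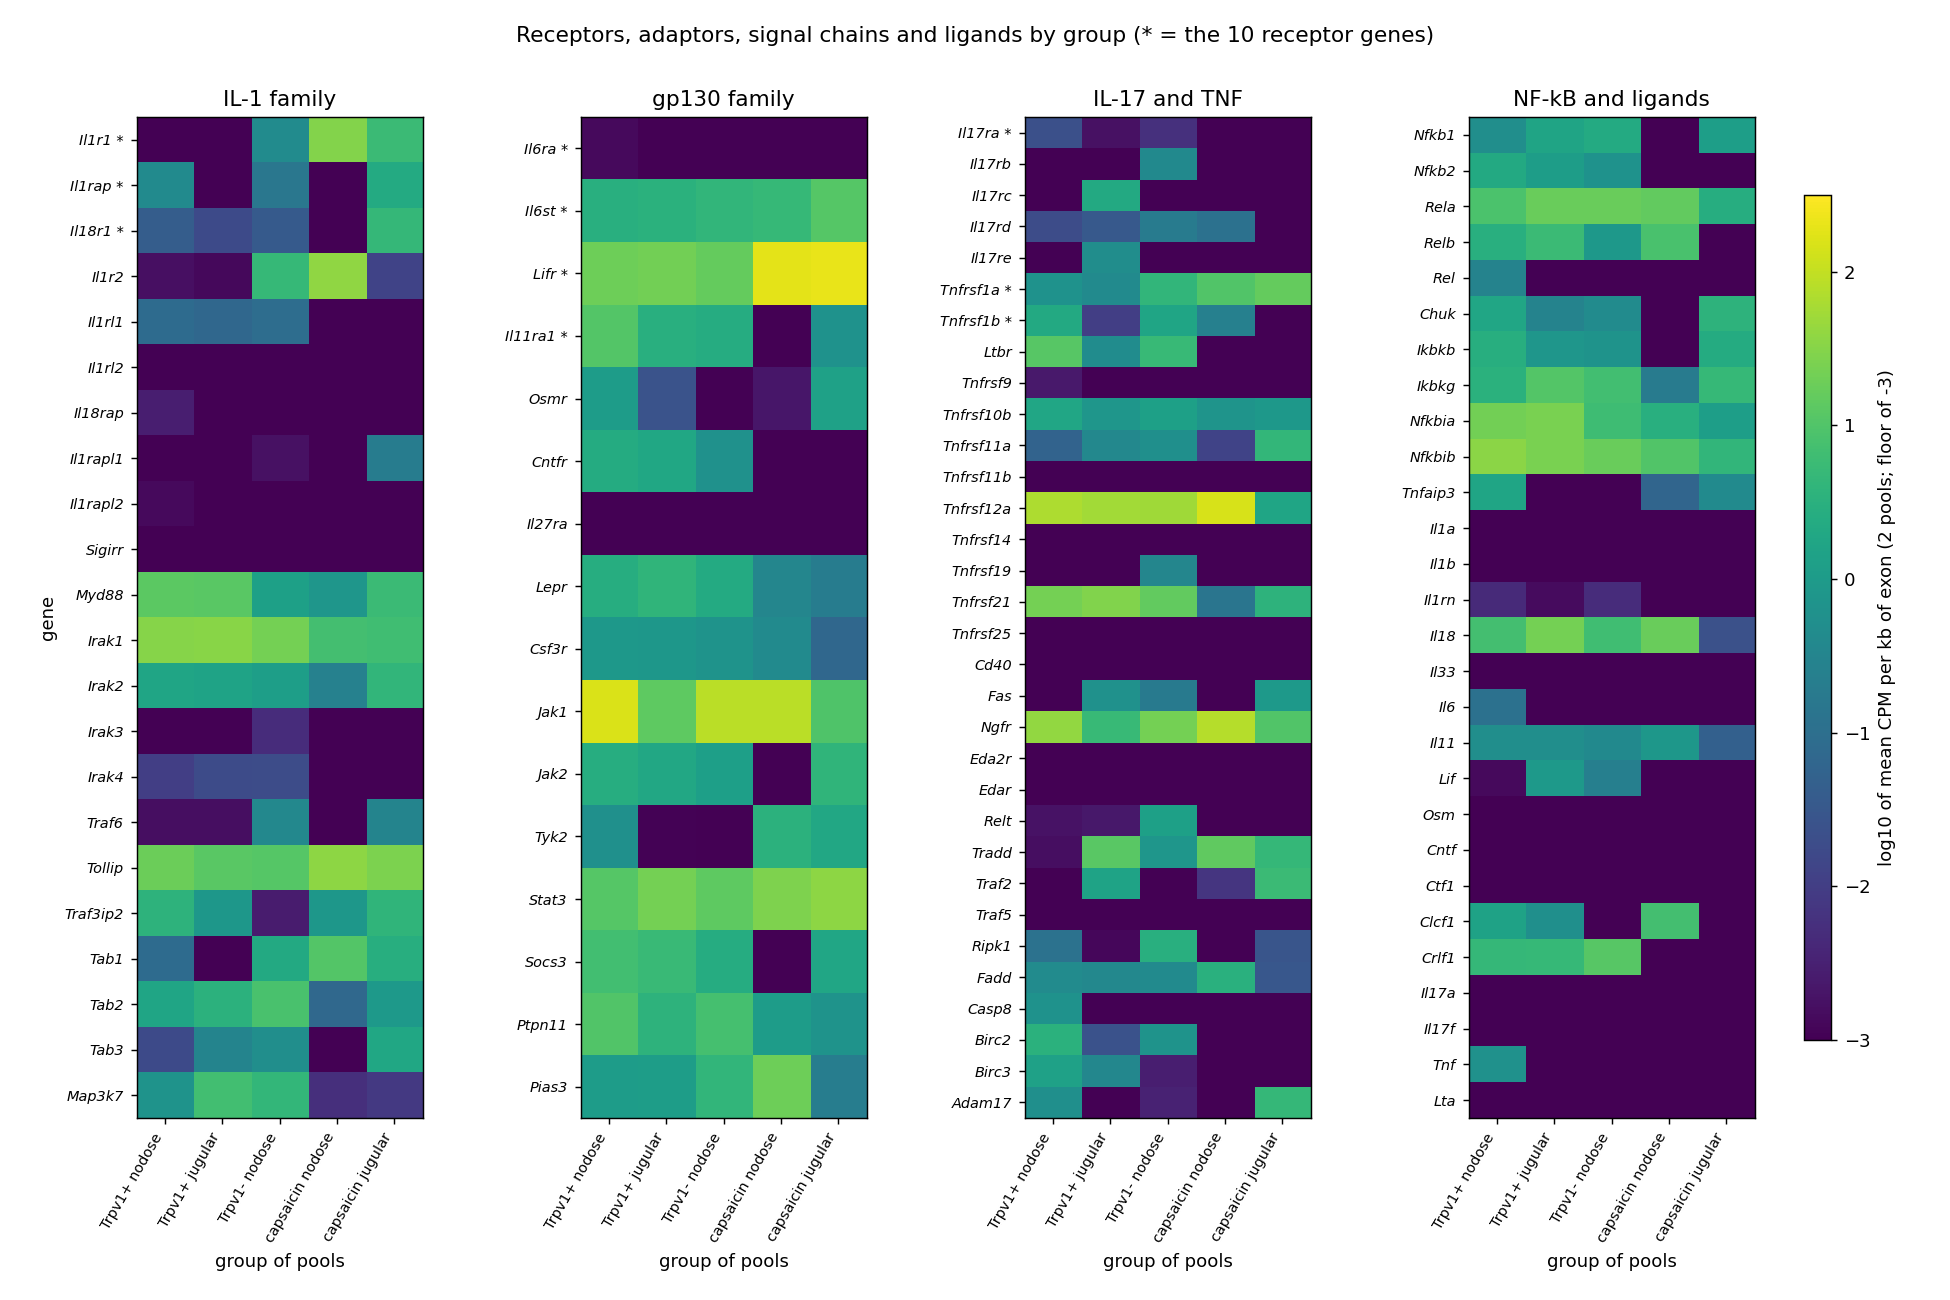
Mean level of each group (2 pools) as log10 of CPM per kilobase of exon, for the 10 receptor genes (marked with an asterisk), other receptors, adaptors, signal chains and ligands, with levels at the bottom of the colour scale including 0. Lifr is the brightest of the 10 receptor genes in all 5 groups, and Jak1 is brighter in the nodose than in the jugular columns.

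The genes whose log2(CPM + 1) profile over the 10 pools was most like that of a receptor gene were found among 7841 genes at 10 CPM or more in both pools of a group. For Lifr they were Pmp22 (Pearson r = 0.976), Paip1 (0.974) and Dpysl2 (0.969). For Il6st they were Ddx56 (0.964), Larp1 (0.956) and Cby1 (0.955), for Il1r1 they were Idh3a (0.963), 9530062K07Rik (0.959) and Dmtf1 (0.949), and for Il11ra1 they were Iqsec3 (0.973), Hexim1 (0.959) and Map3k10 (0.956). These correlations are descriptions over 10 pools that share libraries, selection and depth. Between the receptor genes themselves, the profile of Il1r1 had r = 0.611 with that of Lifr and -0.883 with that of Il11ra1.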

How the data were processed

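RNA of 10 pools of picked neurons was reverse transcribed, amplified by PCR without molecular identifiers and sequenced in paired ends. The authors aligned the reads to mm10 with TopHat2 2.0.9 and Bowtie2 2.1.0.0 (CASAVA 1.8.2 is also named in the submitters' processing notes) and deposited raw HTSeq counts per gene symbol. The annotation and strand setting are not given in the sources used here. All 10 pools were used, grouped by their titles. The main test was edgeR 4.0.16 (R 4.3.3) with TMM, filterByExpr, the quasi-likelihood test and Benjamini-Hochberg adjustment over all genes. Calls needed 10 CPM in both replicates of a group, a fold of 2 or more and an adjusted p not above 0.1. The standard error is the log2 fold change over the square root of F. CPM are counts over DESeq2 1.42.0 size factors of the 10 pools, scaled by the geometric mean total. Comparisons of 2 groups were fitted on their own pools, and those of both selections on 8 pools with the other factor as covariate. Exon lengths and positions came from GENCODE on GRCm38, and promoter sequences from RefSeq. Figures were drawn in Python 3.11.15.

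The genes and lists were chosen with earlier results of these data known. Named beside the 10 genes were list genes called in a comparison, the 2 highest of each list and the 3 genes most alike. Fold changes are printed only for genes at 10 CPM in both pools of a group or with an unadjusted p of at most 0.1, a limit chosen after the values were seen, and not where a whole group was at 0 counts. Alternatives were DESeq2, other normalization, filters, pools in the fit, a replicate block and leaving out each pool. One gene of the gp130 signal chain is not reported here. The scripts were tested on simulated counts.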

Additional observations from a re-analysis of the deposited data

Results flagged for a closer look

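Il18r1 was singled out because its nodose and jugular pools lay apart in opposite directions in the 2 selections. Nodose minus jugular, the mean difference was 0.122 CPM in the Trpv1 selection and -22.4 CPM in the capsaicin selection, where 1 jugular pool at 44.7 CPM made up the value. The other jugular pool had 2 counts (0.103 CPM), under the limit of 3 counts (0.155 CPM), and both nodose pools had 0, so that the pools of the capsaicin selection lay apart in rank only. Of all genes tested, 42.1% had nodose and jugular pools that did not overlap in the Trpv1 selection, as did 42.1% among capsaicin-selected pools. The edgeR test of the difference between the contrasts did not pass (adjusted p = 0.478), and DESeq2 gave an adjusted p of 0.0123 on filtered counts without the gene reaching 10 CPM in both pools of a group.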

How the results depend on the processing

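The number of all genes called depended strongly on the test. In place of the 35 (nodose against jugular, Trpv1 selection), 0 (the same, capsaicin selection), 6 (Trpv1-positive against Trpv1-negative), 88 (both selections), 0 (difference between the contrasts) and 782 (capsaicin against Trpv1 selection) called by edgeR, DESeq2 called 1117, 842, 736, 1401, 1252 and 2621 on the same filtered counts. On unfiltered counts, a setting chosen after the first DESeq2 result had been seen, it called 534, 748, 411, 1190, 1140 and 2332. In the first of these comparisons, on filtered counts, DESeq2 replaced its parametric dispersion trend by a local one. Without the filter on low counts edgeR called 59, 122, 10, 222 and 95 in the first 5 comparisons. With a replicate block it called 13, 20, 1 and 41 in the first 4. The correlation of same-numbered pools was -0.027 to 0.016, and replicate numbers were not taken as pairs. With all 6 pools of the Trpv1 selection in the fit the counts were 71 (Trpv1 selection) and 15 (Trpv1-positive against Trpv1-negative), and with all 10 pools it was 111 in the capsaicin selection. Leaving out 1 pool gave 0 genes (from 0 to 0), 0 to 29, 0 (from 0 to 0), 36 to 82, 0 to 195 and 414 to 733.

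Of the 10 receptor genes, DESeq2 called 1 (Il11ra1) for the difference between the contrasts on either set of counts, and without 1 pool 1 to 2 were called between the selections, Lifr in every such fit. The number with over 3 counts in both pools fell from 6 and 6 to 3 and 3 in the Trpv1-positive groups after thinning. The block turned the log2 fold change of Il11ra1 in both selections from -2.91 to 0.15, and leaving out 1 pool gave -6.97 to 1.78. Leaving out 1 pool also turned fold changes that had not passed. For Il6st they were -0.81 to 0.35 and -9.23 to 0.50 (nodose against jugular, Trpv1 and capsaicin selection), -1.11 to 0.072 (Trpv1-positive against Trpv1-negative), -1.61 to 0.18 (both selections), -9.20 to 0.57 (difference) and -0.11 to 1.32 (between selections). For Lifr, in the first 5 of these comparisons, they were -0.53 to 0.15, -1.20 to 0.16, -0.067 to 0.61, -0.49 to 0.066 and -1.12 to 0.25. The cause of these shifts was not tested. Depth limits the capsaicin pools, where 3 counts are 0.146 to 0.217 CPM against 0.0144 to 0.0191 CPM.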
